A study of Mus musculus with 2 samples.

Results

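The granulosa bins of an old mouse ovary section are 35 small squares of tissue, of 884 squares kept from that section and of 2190 kept from both sections of the series. Gene expression was mapped with Slide-seq, a method in which beads of known position catch the messenger RNA of a section placed over them, so that each molecule can be traced to a spot. The old section came from a C57BL6/J female of about 14 months (labelled Old_1), and a section from a C57BL6/J female of 2 months (Young_3) served as the comparison. Both were 10 µm sagittal cryosections of whole ovary, and no treatment or engineered allele was named for either age. Per the labels, ovaries came from 2 females per age, and planes that showed several oocytes were chosen for capture, which limits how far any section stands for a whole ovary. With 1 library per age there was no replicate, so no test was made, and every interval given here is a 95% interval that covers counting error only. Other sections of the study were not analysed here.

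Granulosa cells are the somatic cells that surround each oocyte, feed it through gap junctions and, as the follicle grows, multiply and make inhibins, activins, anti-Müllerian hormone and oestradiol. After ovulation the granulosa and theca cells of the ruptured follicle turn into the corpus luteum, which makes progesterone. The pool of follicles shrinks with age, so an old ovary holds fewer follicles and relatively more stroma.

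Bins were squares of 70 array units, about 7.08 times the median spacing of the beads, and a bin was kept with at least 500 counts. The 177 bins (20%) with the highest share of Adamts1, a matrix protease induced around ovulation, were left out. The remaining 707 bins were ranked by the summed share of Ivns1abp (a kelch-repeat protein), Serpine2 (an inhibitor of plasminogen activators and thrombin), Amh (anti-Müllerian hormone) and Kctd14 (a protein of the KCTD family). The top 5% were taken, and they were compared with the 849 other kept bins of the old section on genes outside these. The bins were thus chosen by measured values, and the levels of the 4 genes and of Adamts1 describe the rule and support nothing. The lowest granulosa bins had 0.467% and 0.475% of their counts from the 4 genes, and the highest bins just outside had 0.460% and 0.450%. The median was 0.712% in the granulosa bins and 0.0963% in the ranked bins outside. Of the bins left out by Adamts1, 3 reached the level of the lowest granulosa bin.

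A bin is a small region that can hold several cells of different types, not a cell. The granulosa bins held 119846 counts on a median of 10 beads each, with a median of 3517 counts per bin (582 to 7580). The other kept bins held 2173688 counts, with a median of 2035 per bin (500 to 13574). The old section held 2348768 counts on 10267 beads and the young section 5158314 counts on 21403 beads, and no bead barcode occurred in both.

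Of the 4 genes that chose the bins, 3 carried the choice. In the granulosa bins Ivns1abp had 317 counts, Serpine2 had 310, Kctd14 had 289 and Amh had 3. As a level, as the share of all counts in the same bins scaled to 1e6 (counts per 1e6, CPM), Ivns1abp reached 2645 CPM in the granulosa bins and 560 CPM in the other bins. Serpine2 reached 2587 CPM in the granulosa bins and 444 CPM in the other bins, and Kctd14 reached 2411 CPM in the granulosa bins and 193 CPM in the other bins. Amh, the classical marker of small growing follicles, was counted in 2 of the 35 bins and had 6 counts in all kept bins of the section, so it hardly entered the ranking. The granulosa bins held 40.8% of the Kctd14 counts of all kept bins, 24.3% of those of Serpine2 and 20.7% of those of Ivns1abp. The bins left out by Adamts1 held 9.04% of the Kctd14 counts, 38.0% of those of Serpine2 and 25.9% of those of Ivns1abp. So Serpine2 and Ivns1abp were more abundant in total in the Adamts1-rich bins than in the granulosa bins, and Kctd14 was not. These totals are not levels, since the Adamts1-rich bins held 32.9% of all counts and the granulosa bins 5.23%. Of the shares in the Adamts1-rich bins, that of Serpine2 lay somewhat above 32.9% and those of Ivns1abp and Kctd14 below it.

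Ranking on some beads and reading the values from others separates the level from the choice. When bins were ranked on every other bead, 25 of the 35 bins picked were also granulosa bins, and the 4 genes made up 0.699% of the counts on the remaining beads of the picked bins and 0.123% on those of the other bins. On those remaining beads the ratio of picked to other bins was 4.32 (3.47 to 5.33) for Ivns1abp, 5.04 (3.98 to 6.34) for Serpine2 and 10.3 (8.08 to 13.2) for Kctd14. When a gene was left out of the ranking, its own ratio was 4.15 for Ivns1abp, 4.60 for Serpine2 and 7.41 for Kctd14. Only in this last check did a gene's own counts take no part in the choice. Of the 35 bins picked without Ivns1abp, Serpine2 or Kctd14, 28, 27 and 24 were still granulosa bins. The 4 genes were chosen with earlier results of these data known. These values therefore describe the rule and are no independent support for the label.

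The 35 bins were not scattered evenly. Counting bins that touch by a side or corner as a patch, they formed 12 patches, of which 5 had 3 or more bins and 6 were single bins. Patch 1 had 9 bins and 44786 counts, patch 2 had 8 bins and 25664 counts, patch 3 had 4 bins and 4592 counts, patch 4 had 3 bins and 19328 counts, and patch 5 had 3 bins and 10729 counts. The 7 smaller patches had 8 bins and 14747 counts together. Patches 1, 2 and 5 lay within 495 array units of one another, as the map of the section shows, and patches 3 and 4 lay more than 1000 units away from patch 1.

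**Figure D1:**
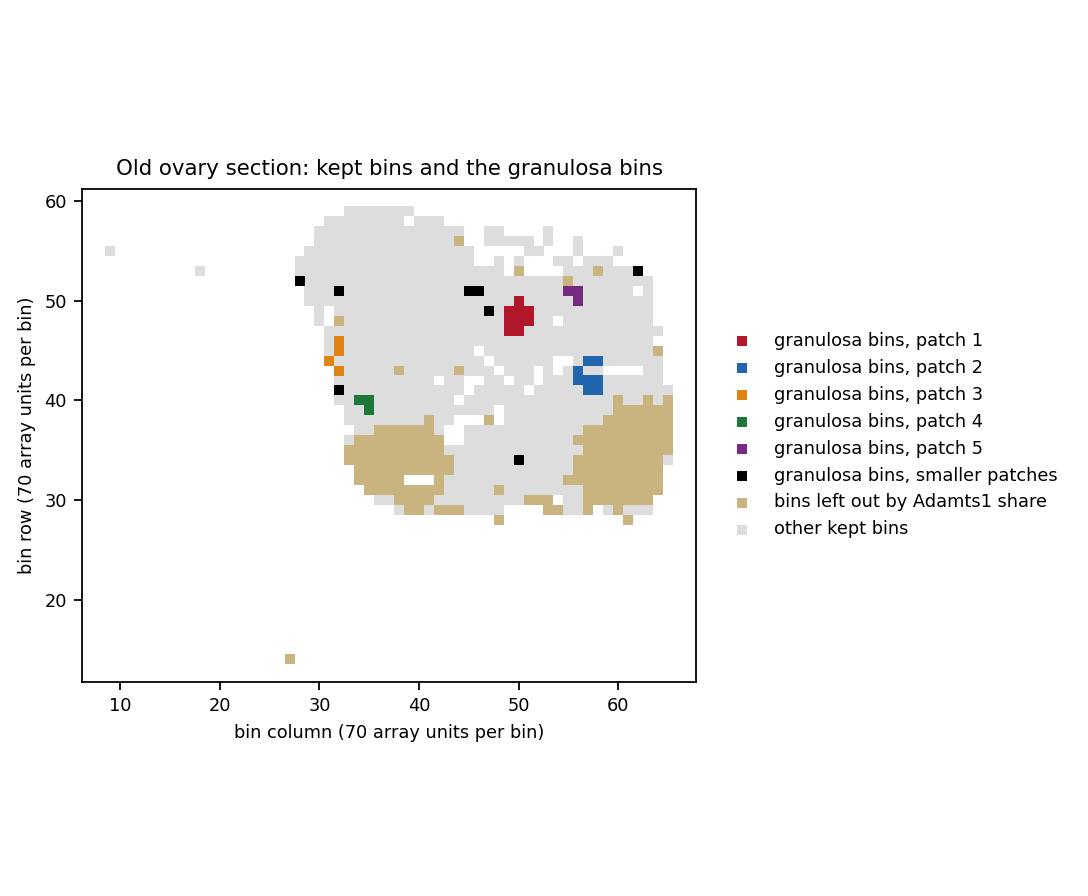
Map of the kept bins of the old section, with bin column and bin row (70 array units per bin) on the axes. Coloured squares are the 35 granulosa bins by patch, tan squares the 177 bins left out by Adamts1 share and grey squares the other kept bins. The granulosa bins form 12 separate patches, the largest of 9 bins.

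The patches differed in which of the 4 genes filled the sum. Kctd14 supplied 26.9% of the counts of the 4 genes in patch 1 and 17.8% in patch 2, against 16.1% in the other kept bins. It supplied 81.3% in patch 3, 48.3% in patch 4 and 48.0% in patch 5. In patch 3 the whole sum was 32 counts, of which 26 were Kctd14, 3 Ivns1abp and 3 Serpine2. In 10 of the 35 bins Kctd14 gave over 50% of the counts of the 4 genes. Amh was counted in patch 1 alone among the 5 larger patches, with 3 counts.

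**Figure D2:**
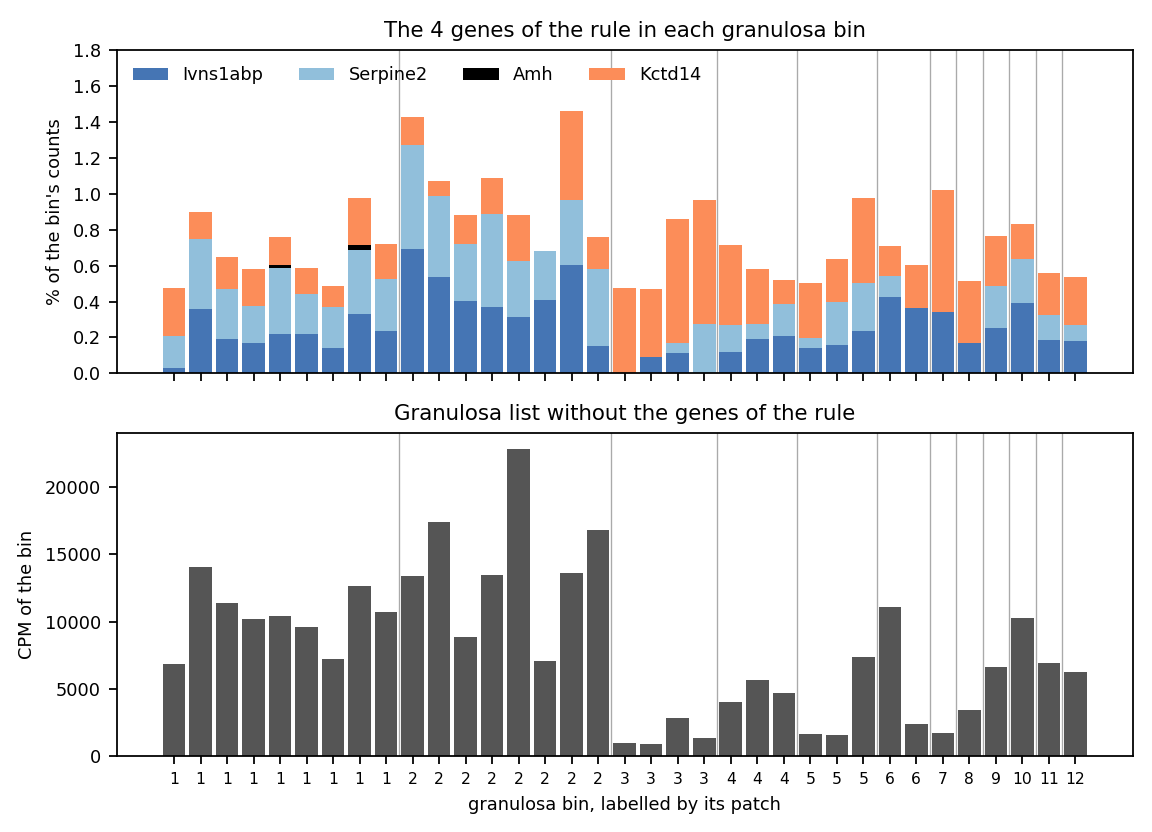
For each of the 35 granulosa bins, labelled by its patch and separated by grey lines, the upper bars show the share (%) of the bin's counts from each of the 4 genes of the rule and the lower bars the summed level (CPM) of the granulosa list without those genes. Bins of patches 1 and 2 are tall in the lower panel, and the 4 bins of patch 3 are mostly Kctd14 above and low below.

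The label was checked against 26 other granulosa genes summed as a list that holds none of the genes of the rule. The granulosa bins had 9045 CPM of this list (8514 to 9600) and the other bins had 2661 CPM (2593 to 2730), a ratio of 3.40 (3.18 to 3.63). Every granulosa bin had at least 1 count of the list, with a median of 26 and a maximum of 96. Per bin, the list reached 935 CPM in the lowest granulosa bin, 7213 CPM in the median one and 22845 CPM in the highest, against 0, 2224 and 10979 CPM in the other bins. The bins overlapped: 29 of the 35 granulosa bins lay above the median of the other bins, and 9 of the 849 other bins reached the median of the granulosa bins. In bulk regions such as these, fewer cells of a type and less RNA per cell cannot be told apart.

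The granulosa list stood highest in patches 1 and 2. It reached 10539 CPM (9610 to 11534) in patch 1 and 14027 CPM (12616 to 15554) in patch 2, against 2661 CPM in the other bins. Within patch 1 the bins had 6823 to 14063 CPM, and within patch 2 they had 7090 to 22845 CPM, so all 17 of these bins stood above the median other bin. Patch 4 had 4863 CPM (3930 to 5952) and the smaller patches had 7663 CPM (6315 to 9213). Patch 5 had 3449 CPM (2428 to 4753), which was not separable from the other bins by counting error. Patch 3 had 1742 CPM (752 to 3433), from 8 counts of the list, and its level was not above that of the other bins. A set of 8 bins, 7 of them with Kctd14 above 50% of the counts of the 4 genes, had no count of Inha, Fst or Foxl2. They held 582 to 3580 counts each. Only 1 of the 4 bins of patch 3 and 1 of the 3 bins of patch 5 lay above the median other bin. The single bin of patch 7, below it too, had 1 count of the list among 588 counts. That of patch 8, above it, had only 2 among 582 counts. In the bins below that median the list does not bear out the granulosa label, though few counts were available, with 8 in patch 3. Those bins stay in every total given for the granulosa bins, because the rule chose them.

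Inhibin and activin genes were higher in the granulosa bins, mainly through patches 1 and 2. Inha, the alpha subunit of inhibin, had 69 counts in patch 1, 62 in patch 2, 0 in patch 3, 4 in patch 4, 5 in patch 5 and 10 in the smaller patches. Its level was 1252 CPM in the granulosa bins and 237 CPM in the other bins, a ratio of 5.27 (4.37 to 6.34). Per bin it ranged from 3 to 17 counts in patch 1 and from 3 to 14 in patch 2, so no bin of either patch lacked it. After each bin was thinned to 500 counts, Inha was expected in 36.6% of the granulosa bins and 10.3% of the other bins, against 71.4% and 37.6% before thinning.

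Inhbb, the beta B subunit shared by inhibin B and activin B, had 39 counts in patch 1 and 23 in patch 2, and 4 counts in all the rest of the granulosa bins. Its level was 551 CPM in the granulosa bins and 55.2 CPM in the other bins, an Inhbb ratio of 9.98 (7.27 to 13.6), which was 6.52 without patch 1. Fst, the activin-binding follistatin, had 48 counts in patch 1, 28 in patch 2 and 4 elsewhere in the granulosa bins. The Fst ratio was 2.34 (1.83 to 2.96), but it depended on what it was set against. It was 6.72 against the other bins without those left out by Adamts1, 10.9 against the bins that touch a granulosa bin, 1.50 without patch 1 and 1.22 with the quadrant that holds patch 1 (high x, high y) left out.

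Gja1, the connexin 43 of gap junctions between granulosa cells, had 98 counts in patch 1, 130 in patch 2, 0 in patch 3, 4 in patch 4, 5 in patch 5 and 16 in the smaller patches. Its level was 2111 CPM in the granulosa bins and 646 CPM in the other bins, a ratio of 3.27 (2.85 to 3.74), and 2.02 without patch 2. Foxl2, the transcription factor that maintains granulosa identity, was spread more widely, with 21, 7, 0, 8 and 1 counts in patches 1 to 5 and 8 in the smaller patches. The Foxl2 ratio was 3.81 (2.70 to 5.28). Amhr2, the receptor of anti-Müllerian hormone, had a ratio of 4.61 (2.98 to 6.93), and Nr5a2, a nuclear receptor of granulosa cells, had 1.06 (0.800 to 1.38). Emx2, a homeobox gene, had 34 counts, with 14 in patch 4 and 3 in patch 3, and a ratio of 7.81 (5.06 to 11.8) that was 4.96 without the quadrant of low x and low y and 13.9 without that of high x and high y. Fshr, the receptor of follicle-stimulating hormone, had 0 counts in the granulosa bins, which allows a level of up to 25.0 CPM.

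Across all genes outside the rule, 1588 had enough counts to be compared, meaning at least 20 counts in the granulosa bins or at least 20 expected there at the level of the other bins. Of these, 213 (13.4%) were at least 2-fold higher in the granulosa bins and 199 (12.5%) at least 2-fold lower, and the median ratio over all 1588 was 1.09. Of the 213 higher genes, 188 reached the minimum only through their counts in the granulosa bins, so these had to stand high and their number is no support for the label. Likewise, genes with under 20 counts in the granulosa bins entered only through the count expected there, so these had to stand low. Some lower genes of the luteal, steroidogenesis, cholesterol synthesis and ovulation-induced lists were of this kind. The numbers of lower genes in those lists are therefore no support either. In the granulosa list 11 of 26 genes had enough counts, 10 of them at least 2-fold higher and 0 at least 2-fold lower. Their median ratio was 4.61, and 7 of the 11 reached the minimum only through the granulosa bins. A list of preantral and cumulus genes had 4 of 12 genes with enough counts, all 4 at least 2-fold higher, though 2 of the 4 reached the minimum only through the granulosa bins. Its summed ratio was 3.57 (3.26 to 3.91).

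The 15 genes with the highest lower limits of the ratio included 5 that were not concentrated in patch 4, namely Tnni3, Slc18a2, Dsp, Fam13a and Nap1l5. Tnni3, a troponin I best known from heart muscle, had 42, 19, 2, 25 and 9 counts in patches 1 to 5 and 18 in the smaller patches, and was above the level of the other bins in 5 of 5 larger patches. Its level was 960 CPM in the granulosa bins and 86.0 CPM in the other bins, a ratio of 11.2 (8.76 to 14.1). Slc18a2, the vesicular monoamine transporter, had 43, 12, 0, 6 and 4 counts in patches 1 to 5 and 12 in the smaller patches, and a ratio of 18.6 (13.4 to 25.9). Tnni3 and Slc18a2 were on the granulosa list, so they also fed its sum.

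Dsp, the desmosomal protein desmoplakin, had 69 counts, of which 46 lay in patch 1, 6 in patch 2 and 7 in patch 4. Its level was 576 CPM in the granulosa bins and 27.1 CPM in the other bins, a ratio of 21.2 (14.8 to 30.6), and 11.3 without patch 1. Fam13a, which carries a RhoGAP domain, had 34 counts with 23 in patch 1 and 8 in patch 2, a Fam13a ratio of 11.6 (7.33 to 18.2), and 6.01 without patch 1. Thinned to 500 counts, Slc18a2 was expected in 21.1% of the granulosa bins and 2.01% of the other bins, and Dsp in 18.0% of the granulosa bins and 1.30% of the other bins. The ratios were smaller against the nearest bins. Against the bins that touch a granulosa bin, the Tnni3 ratio was 3.33, the Slc18a2 ratio 4.46, the Dsp ratio 7.76 and the Fam13a ratio 6.50. Ranked without Serpine2, the Slc18a2 ratio was 11.3 and the Dsp ratio 10.1, and with bins weighted equally the Slc18a2 ratio was 12.3.

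**Figure D3:**
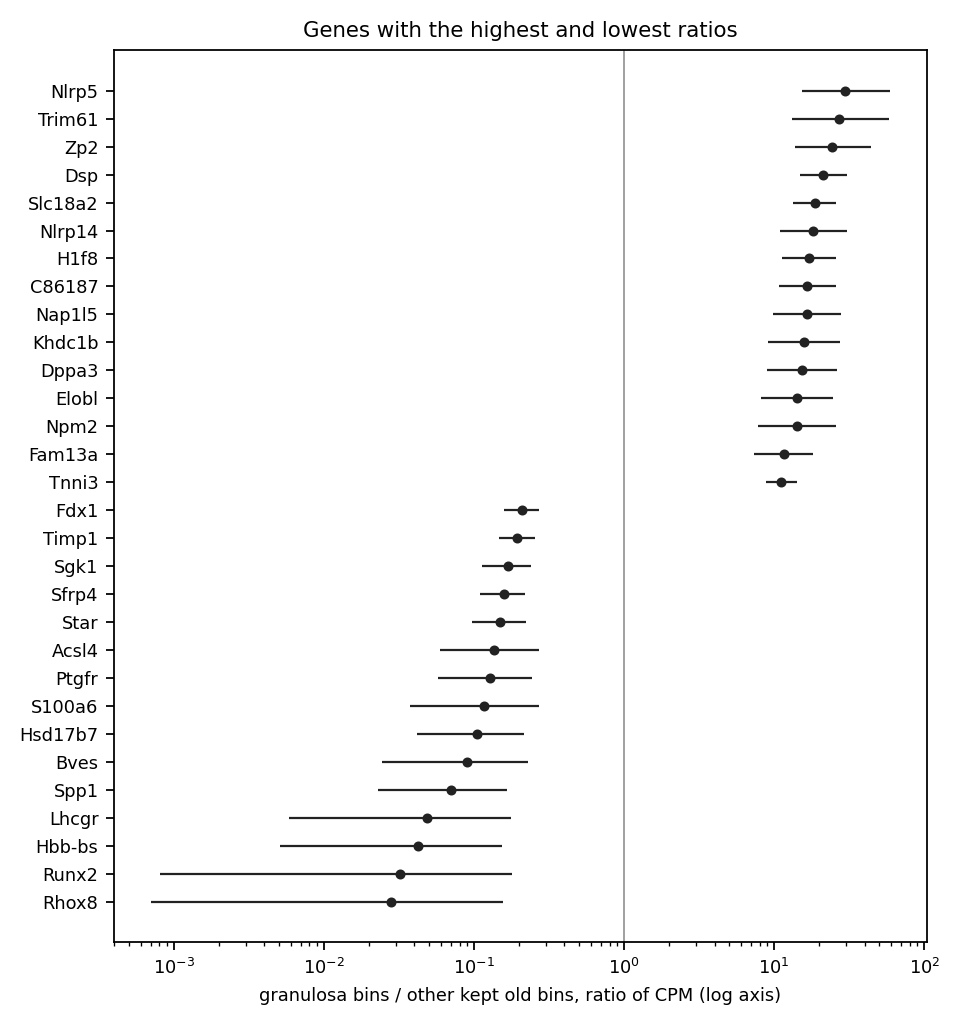
Ratio of CPM in the granulosa bins over the other kept bins of the old section (log axis) for the 15 genes with the highest lower limits and the 15 with the lowest upper limits. Points are ratios and bars 95% intervals for counting error. The highest point is Nlrp5 at 29.5 and the lowest is Rhox8 at 0.0278.

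Genes of dividing cells were higher in the same bins. The proliferation list reached 4197 CPM (3838 to 4580) in the granulosa bins and 1184 CPM (1139 to 1231) in the other bins, a ratio of 3.54 (3.21 to 3.90). Of 22 genes 8 had enough counts, 7 were at least 2-fold higher and 0 lower, and 7 of the 8 reached the minimum only through the granulosa bins. Mki67, the antigen of cycling cells, had 32 counts in patch 1, 13 in patch 2, 12 in patch 4 and 8 elsewhere in the granulosa bins, a ratio of 7.97 (5.86 to 10.7). Top2a, the topoisomerase of S to M phase, had a Top2a ratio of 6.12 (4.68 to 7.95), and 3.73 with the quadrant of high x and high y left out. Ccnd2, the cyclin D2 of granulosa cell division, had 3.81 (2.99 to 4.79), and Mcm3, a replicative helicase subunit, had 4.14 (2.45 to 6.71). The list's level was 5716 CPM in patch 1, 4637 CPM in patch 2 and 3829 CPM in patch 4, against 1184 CPM in the other bins. It was 1089 CPM in patch 3 and 1025 CPM in patch 5, both within counting error of the other bins. Proliferation thus separated patches 1, 2 and 4 from patches 3 and 5. Cdkn1b, the inhibitor p27, was the one gene of a list of cell cycle inhibitors with enough counts, and its ratio was 0.430 (0.274 to 0.643), with 0.501 for the list.

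Growth factor and receptor genes of follicles were mixed. Igf1, the growth factor made by granulosa cells of growing mouse follicles, had a ratio of 3.45 (2.20 to 5.23), its receptor Igf1r had 2.79 (1.95 to 3.88) and the binding protein Igfbp5 had 4.88 (3.64 to 6.47). Igfbp7 had 0.491 (0.388 to 0.613), and the summed IGF list had 0.962 (0.855 to 1.08). The prolactin receptor Prlr had 0.265 (0.172 to 0.389) and the luteinising hormone receptor Lhcgr had 2 counts and a ratio of 0.0484 (0.00585 to 0.175). The list of follicle receptors had a summed ratio of 0.642 (0.534 to 0.767). In the AMH and BMP list, Id3, a target of BMP signals, had 2.30 (1.48 to 3.44), and Id2, a related target, had 0.165 (0.0605 to 0.362). That list's summed ratio was 1.14 (0.994 to 1.30), and 0.900 when bins were ranked on every other bead.

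A list of mural granulosa genes split by gene. Nap1l5, a nucleosome assembly protein, had a ratio of 16.5 (9.83 to 27.7), with 29 of its 31 counts in patch 2 and a ratio of 1.36 without that patch, and Inhbb had 9.98, while Cyp11a1, the side-chain cleavage enzyme that starts steroid synthesis, had 0.259 (0.230 to 0.291). The summed ratio was 0.352 (0.318 to 0.388) and the median of the 4 measured genes was 5.12, so the sum and the median point in opposite directions. Cyp11a1 gave 288 of the list's 413 counts in the granulosa bins.

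Within the granulosa bins, oocyte transcripts were concentrated in 1 patch. The oocyte list reached 2662 CPM (2378 to 2970) in the granulosa bins and 231 CPM (212 to 253) in the other bins, a ratio of 11.5 (9.97 to 13.3). Of its 319 counts in the granulosa bins, 269 were in the 3 bins of patch 4 and 40 in patch 2, and 27 of those of patch 2 lay in 1 bin. The 3 bins of patch 4 had 65, 112 and 92 counts, and 18 of the 35 granulosa bins had none. Without patch 4 the list's ratio was 2.15. The granulosa bins held 38.8% of all oocyte-list counts of the kept bins, and the bins left out by Adamts1 held 6.69%. The 110 bins that touch a granulosa bin had 312 counts of the list, near the 319 of the granulosa bins. Against those adjoining bins the ratio was 1.95.

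The named genes of the list act in the egg and the early embryo. Zp2, a protein of the zona pellucida, had 31 counts of which 29 were in patch 4, a level of 259 CPM in the granulosa bins and 10.6 CPM in the other bins, and a ratio of 24.4 (13.8 to 43.9). Nlrp5, a maternal-effect gene of the subcortical maternal complex, had 26 counts with 24 in patch 4 and a ratio of 29.5 (15.2 to 58.8). Both ratios rest on patch 4, since they were 1.88 for Zp2 and 2.70 for Nlrp5 without it. H1f8, the oocyte linker histone, had 36 counts in patch 4, 12 in patch 2 and 1 in patch 3, and a ratio of 17.1 (11.3 to 25.7) that was 5.41 without patch 4. The maternal genes Nlrp14, Dppa3 (not on the list) and Npm2 had ratios of 18.1, 15.4 and 14.3, and 1.31, 2.62 and 2.32 without patch 4. Trim61, C86187, Khdc1b and Elobl, which are not on the list and were high in the same bins, had ratios of 27.2, 16.6, 15.8 and 14.3, and 12.4, 4.14, 2.79 and 0.655 without it. Trim61 had 13 counts in patch 4 and 8 in patch 2. All 7 measured oocyte genes were at least 2-fold higher, but all 7 reached the minimum only through the granulosa bins. Gdf9, the oocyte growth factor that acts on granulosa cells, had a ratio of 6.36 (3.62 to 10.8).

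**Figure D4:**
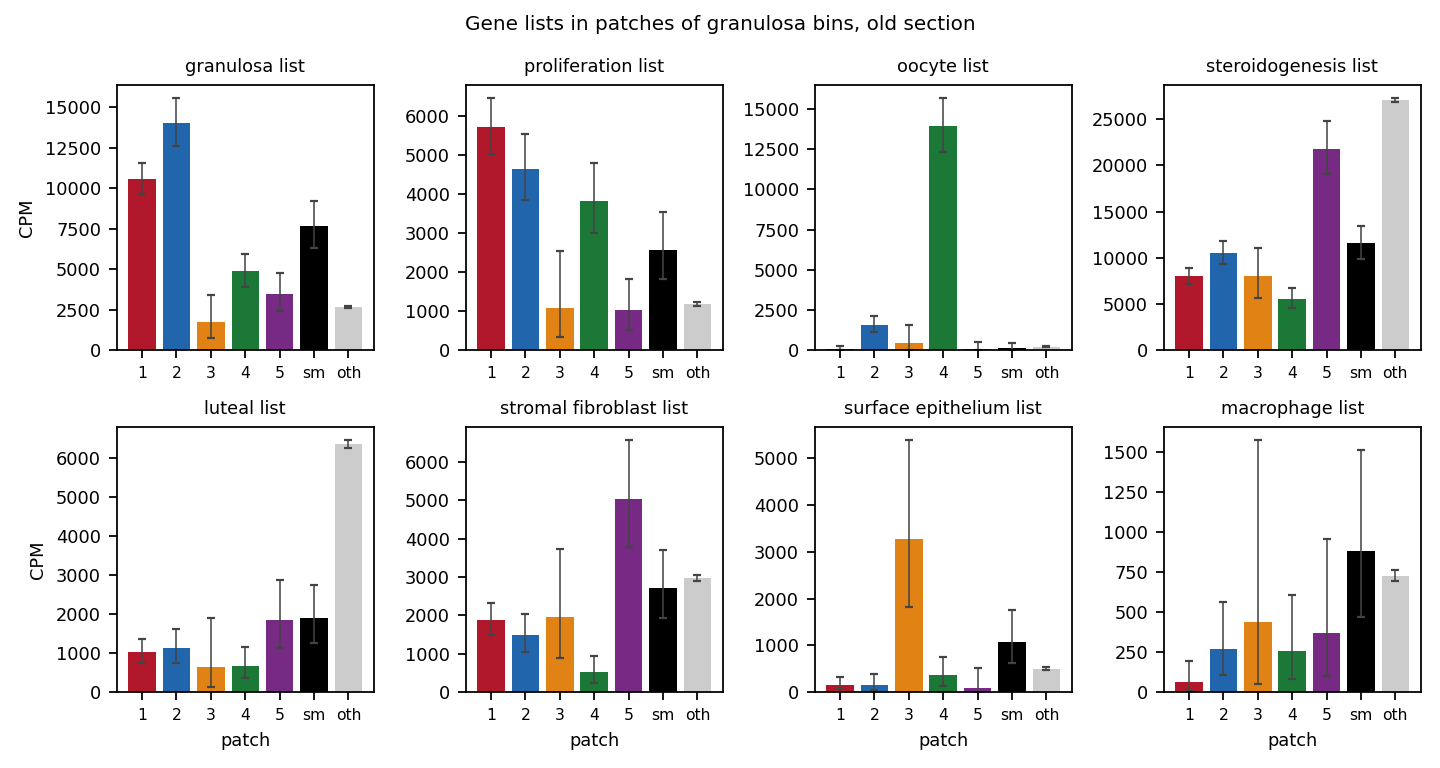
Summed level (CPM) of 8 gene lists in patches 1 to 5, in the smaller patches (sm) and in the other kept bins (oth) of the old section, with bars for the 95% interval of counting error. The granulosa list is highest in patches 1 and 2, the oocyte list in patch 4 at 13918 CPM, the surface epithelium list in patch 3 and the steroidogenesis list in the other kept bins and patch 5.

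Patches 1 and 2 carried the granulosa signal and yet differed in named genes, which were looked at after the patches had been seen. Of 328 genes with enough counts in either patch, 44 (13.4%) were at least 2-fold higher in patch 1 and 12 (3.66%) at least 2-fold lower. Patch 1 held 44786 counts and patch 2 held 25664, so a gene reached the minimum at a lower level in patch 1. A gene could also enter only through the patch where it was high. The 2 shares therefore cannot be set against each other. Igfbp5 had 43 counts in patch 1 and 0 in patch 2, at least 8.21-fold higher when patch 2 is set at 3 counts. The exact interval of that ratio, which covers counting error in both patches, reached below this bound. Vcan, the matrix proteoglycan versican, had 42 counts in patch 1 and 3 in patch 2, a ratio of 8.02 (2.56 to 40.5). Dsp, with 46 counts in patch 1 and 6 in patch 2, had a ratio of 4.39 (1.87 to 12.6).

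The opposite pattern held for Nap1l5, with 1 count in patch 1 and 29 in patch 2, a ratio of 0.0198 (0.000484 to 0.119). Agt, angiotensinogen, had 4 counts in patch 1 and 24 in patch 2, a ratio of 0.0955 (0.0241 to 0.278). Foxo1, a transcription factor of growing-follicle granulosa cells, had 13 counts in patch 1 and 30 in patch 2, a ratio of 0.248 (0.119 to 0.491), and Gja1 had 0.432 (0.329 to 0.566). Fst at 0.982 (0.604 to 1.63), Inhbb at 0.972 (0.566 to 1.70), Mki67 at 1.41 (0.720 to 2.93) and Tnni3 at 1.27 (0.721 to 2.31) had intervals that include 1. Between these patches Inha had a ratio of 0.638 (0.446 to 0.914).

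Patches 3 and 5 had other leading genes, drawn from few. Only 22 genes in patch 3 and 71 in patch 5 had at least 10 counts, against 954 in patch 1 and 389 in patch 2. In patch 3, with 726 to 1748 counts per bin, the 6 leading genes were Gas6, Clu, Hnrnpk, Mt1, Ddx5 and Rsrp1, at ratios of 2.06 to 3.55 over the other bins. Gas6 was not particular to patch 3, with 2178 CPM there and 2121 CPM in patch 1. The 15 counts of surface epithelium genes in patch 3 made 3267 CPM (1828 to 5388), against 500 CPM (471 to 531) in the other bins, and its complement list had 6098 CPM in patch 3 and 3123 CPM in the other bins. Surface epithelium genes were not particular to patch 3. They gave 4 of the 588 counts of the single bin of patch 7 and 7 of the 582 counts of that of patch 8. Over all granulosa bins the surface epithelium list had 50 counts and a ratio of 0.834 (0.615 to 1.11), which was 0.607 without patch 3, 1.53 with each bin weighted equally and 2.35 when bins were ranked without Serpine2. In patch 5 the leading genes were Rgs2, a regulator of G protein signals, at 7.19, and Igf2r, the mannose-6-phosphate receptor, at 5.98. The steroidogenesis list was at 21810 CPM (19105 to 24791) in patch 5, near the 27054 CPM of the other bins, while it was 8016 CPM in patch 1 and 10521 CPM in patch 2. The 3 bins of patch 5 were unlike one another in the granulosa list, with 1594, 1676 and 7383 CPM, and the highest of them, with 25 of the patch's 37 counts of the list, lay within the range of patch 1.

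Genes of the corpus luteum and of steroid synthesis were lower in the granulosa bins. The luteal list reached 1160 CPM (975 to 1369) in the granulosa bins and 6353 CPM (6248 to 6460) in the other bins, a ratio of 0.183 (0.153 to 0.216). In it 8 of 8 measured genes were at least 2-fold lower, against 12.5% of all genes compared. Of these, Lhcgr, Akr1c18, Hsd17b7 and Ptgfr reached the minimum only through the other bins and had to stand low. The luteal list ratio was 0.291 with the quadrant of low x and high y left out. Counts were not absent, since 32 of the 35 granulosa bins had at least 1 count of the list. Sfrp4, a secreted Wnt modulator of luteal cells, had 300 CPM in the granulosa bins and 1906 CPM in the other bins, a ratio of 0.158 (0.110 to 0.218). Ptgfr, the receptor through which prostaglandin F2α brings about luteolysis, had 0.127 (0.0578 to 0.241), and 0.302 without the quadrant of low x and high y. Hsd17b7, which is high in the rodent corpus luteum, had 0.104 (0.0417 to 0.215), and 0.469 without that quadrant. Akr1c18, which inactivates progesterone, had 0.123 (0.0399 to 0.289).

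The steroidogenesis list had 9838 CPM (9284 to 10416) in the granulosa bins and 27054 CPM (26836 to 27274) in the other bins, a ratio of 0.364 (0.343 to 0.385). Of 7 measured genes 6 were at least 2-fold lower, against 12.5% of all genes compared, and 0 higher. Star, which carries cholesterol into mitochondria, had 209 CPM in the granulosa bins and 1397 CPM in the other bins, a ratio of 0.149 (0.0965 to 0.221), and 0.0828 with that quadrant of high x and high y left out. Thinned to 500 counts, Star was expected in 10.8% of the granulosa bins and 42.4% of the other bins. Fdx1, the electron donor of Cyp11a1, had 0.208 (0.158 to 0.270). Hsd3b1, which makes progesterone from pregnenolone, had 0.501 (0.463 to 0.540). The cholesterol synthesis list had 0.380 (0.321 to 0.446), with 5 of 5 measured genes at least 2-fold lower (12.5% of all genes). The theca list had 0.435 (0.366 to 0.514), although Ptch1, the receptor that theca cells use to sense hedgehog ligands, had 2.93 (1.88 to 4.42).

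Some of the lowest genes were those of the Adamts1-rich bins, which the rule had put among the others. The ovulation-induced list, without Adamts1, stood at 0.303 (0.255 to 0.358), and 7 of 7 measured genes were at least 2-fold lower (12.5% of all genes). It was 0.926 against the other bins without those left out by Adamts1, 1.21 against the bins that touch a granulosa bin, and 0.541 with the quadrant of high x and low y left out. The bins left out by Adamts1 held 77.3% of that list's counts, so its low ratio was largely fixed by the rule. Spp1, osteopontin, had 0.0704 (0.0228 to 0.165), and 0.336 without the Adamts1 bins. Bves, a Popeye-domain protein, had 0.0890 (0.0242 to 0.229), and 0.538 without them. Rhox8, a reproductive homeobox gene, had 1 count and a ratio of 0.0278 (0.000702 to 0.155), and a Rhox8 ratio of 0.0978 without them.

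Further genes, like Spp1 and Rhox8, stayed at least 2-fold lower against either set of bins. Runx2, an ovulatory transcription factor in mouse granulosa cells, had 1 count and 0.0322 (0.000813 to 0.180) against all other bins, and a Runx2 ratio of 0.0572 without the Adamts1 bins. Timp1, an inhibitor of matrix proteases, had 451 CPM in the granulosa bins and 2316 CPM in the other bins, a ratio of 0.195 (0.146 to 0.254), and 0.291 without the Adamts1 bins. Sgk1, a kinase induced by steroids and hormones, had 0.168 (0.113 to 0.240), Acsl4, a lipid enzyme, had 0.137 (0.0589 to 0.270) and S100a6, a calcium-binding protein, had 0.116 (0.0375 to 0.271). The haemoglobin gene Hbb-bs had 2 counts and a ratio of 0.0422 (0.00511 to 0.153), and the red blood cell list had 0.0508 (0.0138 to 0.130). Across all alternative settings, the one without the Adamts1 bins among them, Sgk1 reached at most 0.482, Acsl4 0.342, S100a6 0.368 and Hbb-bs 0.151.

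The summed matrix, stromal and vascular lists were also lower. For collagen and matrix genes the summed ratio was 0.452 (0.414 to 0.492), and Sparc, a collagen-binding protein, had 0.371 (0.314 to 0.436). The basement membrane list had 0.541 (0.489 to 0.598), with 1 of 7 measured genes at least 2-fold lower, a share near the 12.5% of all genes compared. The stromal fibroblast list had 0.660 (0.577 to 0.752), with 0 of 5 measured genes at least 2-fold lower, and the smooth muscle list had 0.659 (0.558 to 0.773). The blood endothelium list had 11 counts in the granulosa bins and 0.225 (0.112 to 0.405), and 1.01 when bins were ranked on every other bead.

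Immune and inflammatory lists did not stand high in the granulosa bins of the old ovary. The macrophage list had 284 CPM (196 to 396) in the granulosa bins and 727 CPM (692 to 764) in the other bins, a ratio of 0.390 (0.269 to 0.548), and 0.609 with the quadrant of high x, high y left out. The MHC class I list had 0.451 (0.369 to 0.545), with 3 of 4 measured genes at least 2-fold lower (12.5% of all genes). Among them, H2-D1, a class I heavy chain, had 0.390 (0.254 to 0.575) and B2m, the light chain, had 0.498 (0.310 to 0.759). The interferon response list had 0.712 (0.569 to 0.881), but 1.08 when the top 10% of bins were taken and 1.06 when bins were ranked without Serpine2. The complement list had 0.705 (0.621 to 0.798), and the lymphoid list had 2 counts, too few for a ratio to be read.

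A few metabolic and stress genes went their own way. Ldhb, the lactate dehydrogenase B subunit, had 1076 CPM in the granulosa bins and 299 CPM in the other bins, a ratio of 3.61 (2.96 to 4.36), while Ldha, the A subunit, had 0.461 (0.314 to 0.654). The glycolysis list had 0.889 (0.788 to 0.999), and 1.26 against the other bins without those left out by Adamts1. Hspa5, the chaperone of the endoplasmic reticulum, had 2.05 (1.82 to 2.31) and Hsp90aa1, a cytosolic chaperone, had 2.20 (1.67 to 2.85), while Jun, an immediate early gene, had 0.276 (0.118 to 0.548). The stress list had 1.53 (1.39 to 1.69). In the atresia list Foxo1 had 3.79 (2.82 to 5.02) and Bax, which promotes apoptosis, had 0.813 (0.552 to 1.16), with 1.16 (0.978 to 1.37) for the list. The Wnt and Notch list had 0.559 (0.492 to 0.634), the nuclear noncoding list 0.626 (0.598 to 0.656), and the list of protease inhibitors and plasminogen activators without Serpine2 0.935 (0.764 to 1.13).

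With distance from the granulosa bins, each list had its own profile. The rings also differed in make-up. Bins left out by Adamts1 were 1 of the 110 at 1 step and 6 of the 137 at 2 steps. They were 62 of the 375 at 3 to 5 steps and 108 of the 227 beyond. In those left-out bins the stromal fibroblast list had 1115 CPM, smooth muscle 1094 CPM, macrophage 142 CPM and granulosa 3310 CPM. Distance and this make-up cannot be told apart here. The granulosa list was 9045 CPM in the granulosa bins, 2645 CPM in the 110 bins that touch them, 2106 CPM in the 137 bins 2 steps away, 2530 CPM at 3 to 5 steps and 3067 CPM beyond. It thus dropped within 1 step. The oocyte list was 2662 CPM in the granulosa bins, 1362 CPM at 1 step and 117 CPM at 2 steps. Proliferation genes were 4197 CPM in the granulosa bins, 1672 CPM at 1 step and 872 CPM at 2 steps. The stromal fibroblast list was 1961 CPM in the granulosa bins, 5504 CPM at 1 step, 4032 CPM at 2 steps and 1861 CPM beyond 5 steps. Stromal genes were therefore highest in the bins that touch the granulosa bins, and smooth muscle genes likewise, with 1310 CPM in the granulosa bins, 3217 CPM at 1 step and 1672 CPM beyond 5 steps. Macrophage genes were highest at 2 steps, with 284 CPM in the granulosa bins, 834 CPM at 1 step, 1311 CPM at 2 steps and 373 CPM beyond 5 steps. Luteal genes were 1160 CPM in the granulosa bins, 2558 CPM at 1 step, 5083 CPM at 2 steps, 7993 CPM at 3 to 5 steps and 5805 CPM beyond.

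The granulosa bins were not the main store of granulosa transcripts in the old section. They held 15.8% of the granulosa-list counts of the kept bins and 5.23% of all counts, and the bins left out by Adamts1 held 36.4% of the granulosa-list counts and 32.9% of all counts. Those left-out bins had 3310 CPM of the list, against 9045 CPM in the granulosa bins. For proliferation genes the granulosa bins held 16.3% and the left-out bins 35.5%.

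In the young section the same 4 genes were far more common. The top 5% of the 1306 kept young bins, taken without an Adamts1 step because Adamts1 was counted in only 103 of them, were 65 bins with at least 1.30% of their counts from the 4 genes. Of all kept old bins 2 reached that level, and 416 young bins reached the level of the lowest old granulosa bin. The top 5% therefore stands for different levels at the 2 ages. Age, animal and section plane cannot be told apart here.

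The genes of the rule had another make-up in the old bins, which is given as a description. Ivns1abp had 2645 CPM in the old granulosa bins and 9978 CPM in the young bins chosen alike. Serpine2 had 2587 CPM in the old bins and 2872 CPM in the young bins, and Kctd14 had 2411 CPM in the old bins and 1682 CPM in the young bins. Among genes outside the rule, Gja1 had 2111 CPM in the old bins and 5520 CPM in the young bins, a ratio of 0.382 (0.335 to 0.436), and Fst had a ratio of 0.562 (0.438 to 0.713). Inhbb had 551 CPM in the old bins and 126 CPM in the young bins, a ratio of 4.38 (3.01 to 6.39). Foxl2 had a ratio of old to young bins of 3.84 (2.46 to 5.99), Tnni3 3.05 (2.36 to 3.94) and Emx2 4.87 (2.82 to 8.52). The intervals for Slc18a2 at 0.968 (0.742 to 1.25), Mki67 at 1.21 (0.896 to 1.61), Fam13a at 0.990 (0.657 to 1.46) and Amhr2 at 1.19 (0.762 to 1.82) include 1. Timp1 at 6.45 (4.05 to 10.4) and Star at 9.95 (4.49 to 24.2) were higher in the old bins, as levels, although both were lower there than in the other bins of their own section. All these ratios hold only for the young bins chosen alike. The other young bins had 569 CPM of Inhbb. Chosen over other young bins, Inhbb had 0.221 (0.166 to 0.289) and Foxl2 0.763 (0.544 to 1.04). Tnni3 had 1.59 (1.32 to 1.91) and Emx2 1.39 (0.875 to 2.11).

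Set against the other bins of its own section, the choice gave unlike contrasts at the 2 ages. The old section had a granulosa list ratio of 3.40, against 1.16 (1.13 to 1.19) in the young section, and an oocyte list ratio of 11.5, against 0.0960 (0.0817 to 0.112) in the young section. In the young section 419 of 5390 genes (7.77%) were at least 2-fold higher and 489 (9.07%) at least 2-fold lower. When the young bins were those at or above the old threshold, the young granulosa ratio was 3.34 and the young oocyte ratio was 1.26. So the difference in the granulosa contrast, and the side of 1 of the young oocyte ratio, depended on how many young bins were taken. The proliferation list had 3.54 in the old section, against 2.24 (2.13 to 2.36) in the young section, and the luteal list had 0.183 in the old section, against 0.0998 (0.0859 to 0.115) in the young section. The difference between the sections was not tested for any list.

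**Figure D5:**
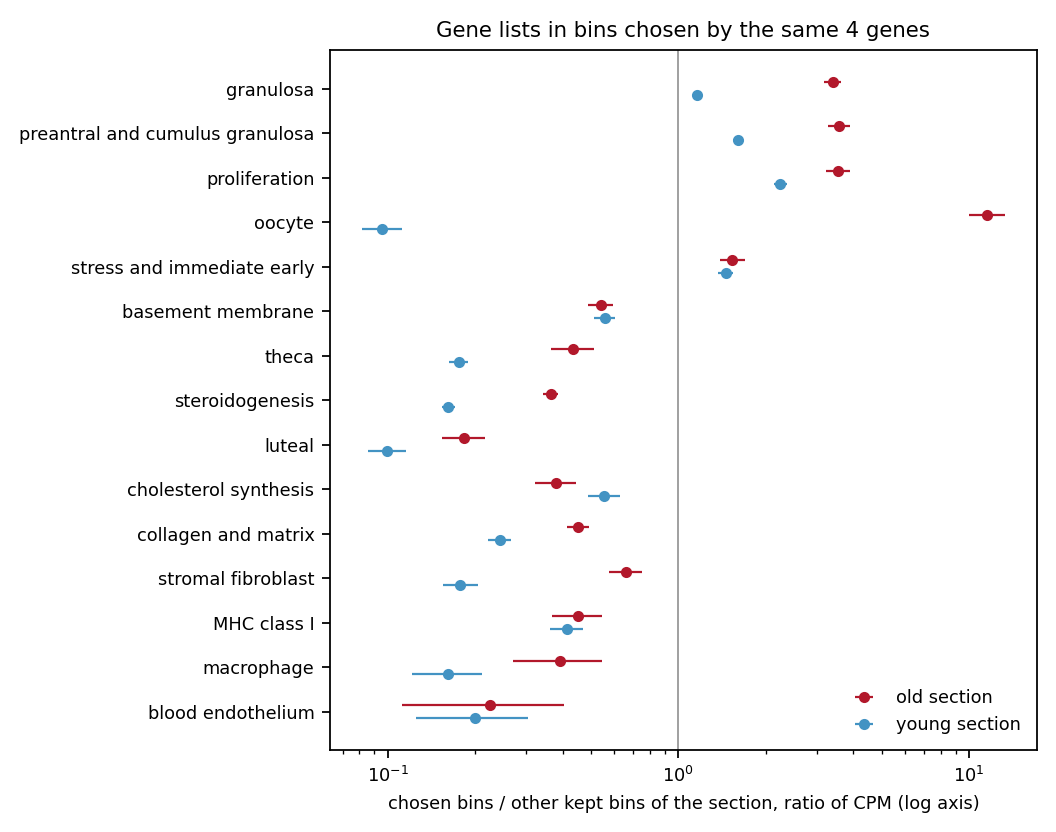
Ratio of CPM in the chosen bins over the other kept bins of the same section (log axis) for gene lists, in the old section (red) and the young section (blue), with bars for the 95% interval of counting error. The granulosa list is at 3.40 for the old section against 1.16 for the young section, and the oocyte list lies on opposite sides of 1.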

How the data were processed

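The authors deposited, for each section, raw counts of each gene on each bead and, apart from them, the positions of the beads in array units. The submitters' processing notes name mm10, while aligner, counter and annotation were not given in the sources used here. Counts of beads present in both files were summed in bins of 70 units with Python 3.11.15 (pandas 2.3.3, numpy 2.4.6, scipy 1.17.1). Levels are CPM of summed counts with exact Poisson intervals, and ratios have exact conditional binomial (Clopper-Pearson) intervals at 95%. The totals include every gene. These intervals treat each count as 1 independent molecule and leave out differences between bins, animals and sections. A gene was called at 2-fold. Bins are not replicates, and with 1 library per age no test was made.

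The members, the 32 gene lists and the rules were chosen with earlier results of these data known. Lists share genes, and 1 gene of a list is not reported here. The genes named were the 15 with the highest lower limit and the 15 with the lowest upper limit of the ratio, leaving out mitochondrial, ribosomal protein and predicted genes, and, from each list, at most 3 at either end of the ratios and the 2 most abundant among its measured genes. Emx2, Foxl2, Amhr2, Fshr and the genes compared between or leading the patches were chosen after their values were seen or as granulosa markers. Of 1588 genes tested 1578 matched a RefSeq name. The interval and patch steps were tested on simulated data. Alternatives covered bin size, thresholds, ranking genes, the bins compared, totals and leaving out each quadrant or patch.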

Additional observations from a re-analysis of the deposited data

Results flagged for a closer look

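Ratios that lay on opposite sides of 1 in the chosen bins of the 2 sections drew attention, and the difference was not tested for any of them. The oocyte list had a ratio of 11.5 in the old section, against 0.0960 in the young section. Nlrp5 had 29.5 in the old section, against 0.0796 in the young section, Zp2 had 24.4 in the old section, against 0.101 in the young one, and Trim61 had 27.2 in the old section, against 0.251 in the young one. H1f8 had 17.1 in the old section, against 0.123 in the young section, Nlrp14 had 18.1 in the old section, against 0.0446 in the young one, and C86187 had 16.6 in the old section, against 0.0842 in the young one. Khdc1b had 15.8 in the old section, against 0.134 in the young section, Dppa3 had 15.4 in the old section, against 0.135 in the young one, Elobl had 14.3 in the old section, against 0.176 in the young one, and Npm2 had 14.3 in the old section, against 0.0510 in the young one. Each of these old values includes the counts of patch 4, without which the oocyte list had 2.15. Inhbb, which is no oocyte gene, had 9.98 in the old section, against 0.221 in the young section.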

How the results depend on the processing

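Of 2030 values recomputed under 31 settings and 2 further choices of young bins, 1571 moved by less than the counting interval or the count limit. A further 454 moved by more, and 5, all of ratios at least 2-fold from 1, changed direction. The granulosa list ratio of 3.40 was 4.04 with the top 3% of bins, 2.82 with the top 10%, 2.96 ranked without Serpine2, 3.91 against the other bins without those left out by Adamts1, 2.99 without the quadrant of high x and high y, and 3.06, 2.89 and 3.70 without patches 1, 2 and 4. The oocyte list ratio of 11.5 was 4.89 with bins of 50 units, 6.50 with 100 units, 2.37 with the grid shifted by part of a bin, 4.62 with the top 3%, 14.9 with the top 40% by Adamts1 left out, 7.52, 8.48 and 4.25 ranked without Ivns1abp, Serpine2 and Kctd14, 7.65 ranked on every other bead, 8.43 without the Adamts1 bins, 1.95 against adjoining bins, 7.60 with bins weighted equally, 2.59, 14.5 and 21.1 without the quadrants of low x and low y, high x and low y, and high x and high y, and 18.1 and 2.15 without patches 1 and 4. The 213 genes higher in the granulosa bins and 199 genes lower in the granulosa bins became 384 and 340 at 1.5-fold, 525 and 412 with at least 10 counts per gene, 61 and 105 with at least 40, 33 and 60 ranked on every other bead, 96 and 118 without patch 1, and 70 and 107 without the quadrant of high x and high y. There were 125 higher genes with the top 3%, 115 ranked without Serpine2, and 129 lower genes against adjoining bins. Of the 5 that changed direction, the ovulation-induced list ratio was 1.21 against adjoining bins. The blood endothelium list ratio was 1.01 ranked on every other bead. Elobl was at 0.777 without the quadrant of low x and low y and 0.655 without patch 4. The young oocyte list was 1.26 at the old threshold. Ratios within 2-fold of 1 that crossed 1 were not counted so. Among these, the interferon response list reached 1.08, glycolysis 1.26 and surface epithelium 2.35, and the AMH and BMP list fell to 0.900. Leaving out a patch or ranking on some of the beads removes counts by construction. For the other changes the cause was not tested. No paired analysis was possible because each age has 1 library and the replicate numbers 1 and 3 are not shared. Depth limits genes under 20 counts, and patch 3 held 4592 counts, so few genes could be read there.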
